A study of Mus musculus with 18 samples.

Results

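The genes described here are 7 genes of the LIN28 and let-7 pathway, *Lin28a*, *Lin28b*, *Trim71*, *Hmga2*, *Igf2bp1*, *Igf2bp3* and *Mycn*. They were chosen by name out of the 18659 genes of the table, with the fall of *Lin28a* in the 5p knockdown already known, and all 7 have a row in it. RNA depleted of rRNA was sequenced from serum-grown mESCs, the E14 line of mouse embryonic stem cells kept with LIF, in 16 libraries of 3 replicate sets. Knockdown (KD) of *Stag1*, a subunit of the cohesin complex, lasted 24 h. Scrambled siRNA (scr) was the control in every set, with 1 library each. SP was a pool of commercial siRNAs to *Stag1*, with 3 libraries in set 1 (1a, 1b and 1c) and 1 each in sets 2 and 3. The other KDs had 1 library each in sets 2 and 3. Of these, 5p was a single custom duplex to the 5′ end of the mRNA, and 3p was a mix of catalogue siRNAs to its 3′ end whose product numbers also occur in the SP pool. SATS was an enzymatically prepared siRNA to the 5′ UTR that begins at an upstream start site of *Stag1*. Set 2 also held 1 library of untreated cells and set 3 held 1 library of luciferase siRNA.

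LIN28A and LIN28B are RNA-binding proteins that block the processing of let-7 precursors, so that the mature microRNA stays low in pluripotent cells and rises with differentiation. Mature let-7 in turn represses mRNAs with matches to its seed in their 3′ UTRs, among them *Lin28a*, *Lin28b*, *Trim71* and *Hmga2*, so that the pathway forms a loop. TRIM71 is an RNA-binding ubiquitin ligase of early embryos, HMGA2 is a chromatin protein of growing cells, IGF2BP1 and IGF2BP3 bind and stabilise mRNAs, and MYCN is a transcription factor of proliferating progenitors.

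The let-7 sequences are shown because the shared seed defines what a target match is. The RefSeq table used here lists 13 mature let-7 or miR-98 entries of the mouse, and 12 of them have the seed GAGGUAG at bases 2 to 8, while let-7j has GAGGUAU. The members whose precursor has a row in the table are printed 5′ to 3′ with the seed in capitals. As an example of position, let-7a lies at chr13:48538239-48538260 of GRCm38.p6, on the minus strand.
let-7a: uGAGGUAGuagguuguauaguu
let-7d: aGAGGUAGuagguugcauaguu
let-7e: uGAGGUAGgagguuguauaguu
let-7f: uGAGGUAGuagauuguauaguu
let-7g: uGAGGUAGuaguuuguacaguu
let-7i: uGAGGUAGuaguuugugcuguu
miR-98: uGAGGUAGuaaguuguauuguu

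The letters that pair with this seed, CTACCTC, were searched on the mRNA strand of the longest annotated 3′ UTR of each gene (GENCODE M21, GRCm38). Of 10465 genes whose mean value reached 50, 11.3% hold them, as do 6 of the 7 pathway genes, whose 3′ UTRs are longer (median 3014 bases, against 1251 over all these genes). *Lin28b*, *Trim71*, *Hmga2* and *Igf2bp1* hold 4 matches each, *Lin28a* holds 2, *Igf2bp3* holds 1 and *Mycn* holds none in this window. Most of these genes are known let-7 targets and were picked as such, so the count describes them and is no result. Matches in exonic 3′ UTR are printed with the letters that pair in capitals, to show how far the flanks differ under 1 seed. They lie on minus-strand genes, with the capitals at chr4:134005190-134005196 and chr4:134004552-134004558 in *Lin28a*, chr10:45381023-45381029 in *Lin28b*, chr9:114512473-114512479 in *Trim71*, chr10:120364225-120364231 in *Hmga2*, chr11:95961779-95961785 in *Igf2bp1* and chr6:49086788-49086794 in *Igf2bp3*.
Lin28a, first let-7 match: cacagcctgttgaaCTACCTCat
Lin28a, second let-7 match: agatcgccacaaacCTACCTCac
Lin28b, first let-7 match: cccgggcgggaagtCTACCTCat
Trim71, first let-7 match: acattgcctaagtcCTACCTCag
Hmga2, first let-7 match: ccgacattcaatttCTACCTCag
Igf2bp1, first let-7 match: ctgtgcgaagtaaaCTACCTCaa
Igf2bp3, let-7 match: gcatttttactcaaCTACCTCag

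A further heptamer was searched the same way because the rule turns on the 5p KD. The strand of the 5p duplex that is complementary to *Stag1* pairs through its bases 2 to 8 with GTGGAAG. This heptamer occurs in 14.3% of the 3′ UTRs, in 4 of the 7 pathway genes (1 copy each in *Lin28a*, *Trim71* and *Igf2bp3*, 2 copies in *Mycn*) and not in the windows of *Lin28b*, *Hmga2* and *Igf2bp1*. In 3′ UTRs of like length (within 1.25-fold), 24.1% held a copy for the length of *Lin28a* and 39.6% for that of *Trim71*. For the lengths of *Igf2bp3* and *Mycn* the shares were 18.8% and 8.0%. *Mycn*, with 2 copies, was at 97.6% and 94.4% of scr in 5p of sets 2 and 3. The copies of *Lin28a* (chr4:134004967-134004973) and *Trim71* (chr9:114507338-114507344) are printed because these genes were the lowest members in 5p, and that of *Igf2bp3* (chr6:49086074-49086080) because its value in 5p was not below scr. A match is a description of the letters, and its part in any value was not tested.
Lin28a, GTGGAAG copy: cttttgccagattaGTGGAAGcc
Trim71, GTGGAAG copy: cgggtgaagagccaGTGGAAGag
Igf2bp3, GTGGAAG copy: agatgttttaaacaGTGGAAGaa

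The values are reads per gene divided by 1 size factor per library, and are called normalized values. Depth on genes was 32137666 to 45660840 reads per library in sets 2 and 3, and 9023224 to 14040830 in set 1, of which 69.2% to 79.1% lay on the rRNA gene *Rn45s*, so the values of set 1 carry more counting error. *Stag1*, the targeted gene, was at 1876 and 2113 in scr of sets 2 and 3, and at 17.3% to 23.5% of scr in SP, 3p and 5p and at 50.5% and 49.7% in SATS of these sets. All 8 pluripotency markers were above 0 in all 16 libraries (summed value 27741 to 62211). The summed value of 6 fibroblast markers went with the set: 6218 to 11337 in set 2, 772 to 1601 in set 3 and 129 to 315 in set 1 without SP 1c, which held 749. Library SP 1c thus stood apart within its set, and values over 3 sets are given with and without it. The labels do not say that the sets came from separate cultures, so p-values measure the spread between these samples only.

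Among the 7 genes, *Igf2bp1* and *Lin28a* had the highest levels per length. Per kb of exon, the median normalized value over the 12 libraries of sets 2 and 3 was 2346 for *Igf2bp1* (range 1856 to 2574) and 2171 for *Lin28a* (1409 to 2565). *Mycn* followed at 1126 (972 to 1410) and *Trim71* at 868 (583 to 1020). *Igf2bp3* was at 267 (223 to 302), *Hmga2* at 137 (88.5 to 190.5) and *Lin28b* at 104 (78.1 to 153). The ranges of *Igf2bp1* and *Lin28a*, of *Mycn* and *Trim71*, and of *Hmga2* and *Lin28b* overlapped, and those of *Lin28a* and *Mycn* met at their ends, while *Igf2bp3* overlapped neither *Trim71* nor *Hmga2*.

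**Figure D1:**
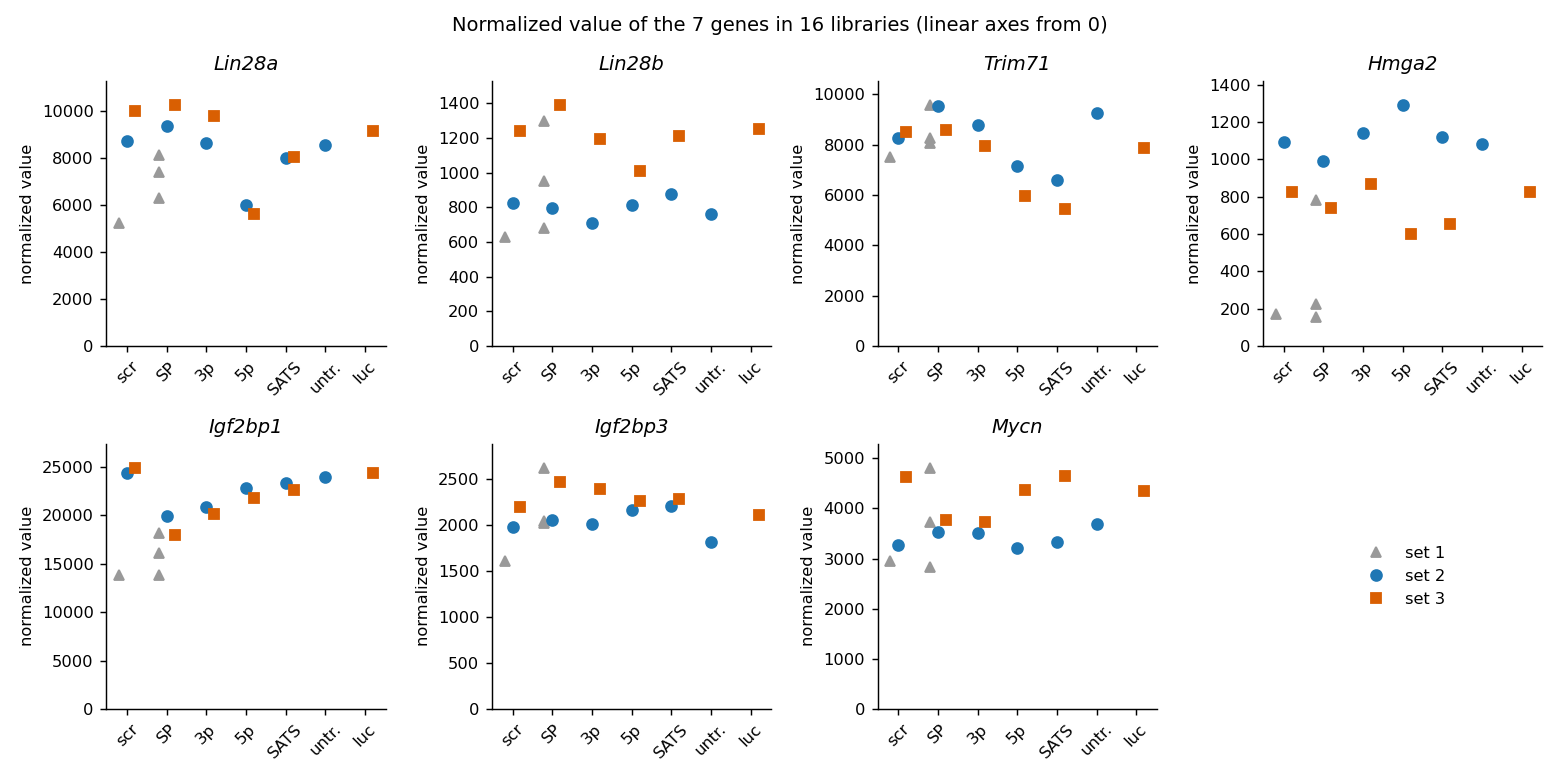
Normalized value (linear axis from 0) of each of the 7 genes by treatment, 1 point per library, with triangles for set 1, circles for set 2 and squares for set 3. *Lin28a* is at 5997 and 5629 in the 2 libraries of 5p, below the other libraries of sets 2 and 3, and *Hmga2* is at 158 to 226 in 3 of the 4 libraries of set 1.

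*Lin28a* (chr4:134003330-134018841 of GRCm38, minus strand), the LIN28 paralog best known from embryonic stem cells, was the gene on which the choice was made, so its level in 5p is a description. Its normalized value was 8704 in scr of set 2 and 9992 in scr of set 3. In 5p it was 5997 and 5629, or 68.9% and 56.3% of scr of the same set. The other libraries of sets 2 and 3 lay between 8015 and 10250 (untreated and luciferase included), so both 5p libraries were below every one of them. The summed value of 3 ectoderm markers (*Pax6*, *Nes* and *Sox1*) was also lowest in 5p in both sets, at 2945 against 3319 in scr of set 2 and at 1831 against 3229 in scr of set 3, with none of the 3 at 0, and its part in the level of *Lin28a* was not tested. *Lin28a* in the scr library of set 1, at 5243 from 783 reads, was lower than in both 5p libraries, which shows how far the sets differ. The mean log2 difference of *Lin28a* in 5p was −0.68 over the 2 sets.

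Outside 5p, *Lin28a* was not called in any KD. In sets 2 and 3, SP held 9374 and 10250, just above scr, and 3p held 8643 and 9770, just below it. The log2 fold change by limma was 0.07 (SE 0.11, 95% interval −0.18 to 0.33) in SP and −0.02 (SE 0.11, −0.28 to 0.23) in 3p. SATS held 8015 and 8042, below scr in both sets (92.1% and 80.5%). Its log2 fold change was −0.22 (SE 0.11, interval −0.47 to 0.04) with a limma adjusted p of 1.00. Blocking on the replicate set gave 0.186, so it was not called.

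Over the 10 libraries of sets 2 and 3 other than scr, each taken as the log2 difference from scr of its set, the genes whose pattern was most like *Lin28a* among 11018 others were *Kdm2b* (Pearson r = 0.991), *Tsr2* (0.989), *Sart3* (0.983), *Itpkb* (0.981) and *Ywhag* (0.978). The libraries of a set share 1 scr library, and r is given as a description. *Kdm2b* encodes a histone demethylase that recruits Polycomb complexes to CpG islands, and its log2 difference in 5p was −0.52 and −0.75. For *Tsr2*, a gene of ribosome maturation, it was −0.70 and −1.18. *Sart3*, *Tsr2* and *Ywhag* hold 1 copy of GTGGAAG in the 3′ UTR, and *Kdm2b* and *Itpkb* hold none. Of 3′ UTRs of like length, 5.9% (*Sart3*), 27.1% (*Tsr2*), 23.3% (*Ywhag*), 9.1% (*Kdm2b*) and 24.9% (*Itpkb*) held a copy. The part of the copies in these values was not tested. The 5p libraries used for the choice enter the order of the 5 genes. Over the 8 libraries without 5p, an alternative chosen after seeing the data, r was 0.904 to 0.970 for these 5 genes, and their ranks fell to between 16 and 168. For *Trim71*, r was 0.74 (rank 603) with 5p and 0.93 (rank 101) without it, and for *Lin28b* it was 0.46 and −0.080.

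*Lin28b*, the second LIN28 paralog, varied more with the set than with the KD. Its value was 824 in scr of set 2 and 1238 in scr of set 3. SP held 794 and 1389, 3p held 708 and 1191, SATS held 877 and 1213, and 5p held 811 and 1011. In every KD the library of set 3 was above that of set 2. The log2 fold change was 0.06 (SE 0.36) in SP, −0.14 (SE 0.36) in 3p and 0.03 (SE 0.36) in SATS, with limma adjusted p of 1.00 in each. With the set as a block the intervals narrowed to −0.17 to 0.28, −0.36 to 0.09 and −0.20 to 0.26, and no KD was called.

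*Trim71* (chr9:114507133-114564369, minus strand) was the pathway gene furthest below scr in SATS. Its value was 8248 and 8478 in scr (sets 2 and 3) and 6585 and 5443 in SATS, that is 79.8% and 64.2% of scr of the same set. Both SATS libraries were below all other libraries of their set. The summed value of the fibroblast markers was above scr in SATS in both sets (10572 against 6780 in set 2, 1601 against 1198 in set 3). It was 11337 in untreated cells of set 2 and 772 in luciferase of set 3, with *Trim71* at 9239 and 7851. The part of this sum in the level of *Trim71* was not tested. The log2 fold change was −0.48 (SE 0.14, interval −0.80 to −0.17), with a limma adjusted p of 1.00 over 16490 genes. With the set as a block the adjusted p was 0.0190 by limma (SE 0.09), 0.0160 by edgeR and 0.000143 by DESeq2, so the call rests on the block. Leaving out 1 library leaves 1 in an arm, which cannot decide the call. With the block by limma, the log2 fold change was then −0.61 to −0.36.

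In the other KDs *Trim71* held 9521 and 8564 (SP) and 8781 and 7955 (3p), near or above scr, and 7146 and 5938 in 5p. Its log2 fold change was 0.11 (SE 0.14, interval −0.20 to 0.43) in SP and 0.00 (SE 0.14, −0.32 to 0.31) in 3p, while the difference in 5p was −0.36 as a description. The contrasts of SATS with SP and with 3p, which use no scr library, were run after these values were seen. The log2 difference of SATS from SP was −0.59 (SE 0.14) with a limma adjusted p of 0.568, and of 0.00220 with the block. From 3p it was −0.48 (SE 0.14), with 1.00 and 0.0116. Over all genes these contrasts called 0.0121% (SATS and SP) and 0% (SATS and 3p) without the block and 9.42% and 3.06% with it. In the same block fit *Lin28a* was lower in SATS than in SP by a log2 difference of −0.29 (adjusted p 0.0497, and 0.678 without the block), and its difference of SATS from 3p, −0.19, was not called (0.247 with the block).

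**Figure D2:**
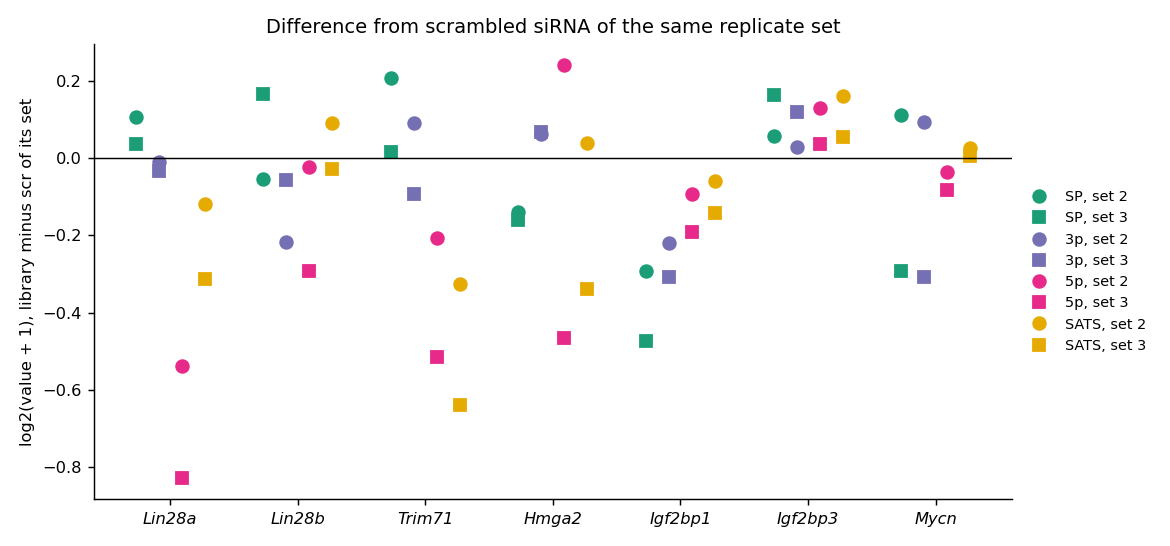
Log2(value + 1) of each KD library minus that of scr of the same set, for the 7 genes (circles for set 2, squares for set 3, 1 colour per KD). *Lin28a* is lowest in 5p (−0.54 and −0.83) and *Trim71* in SATS (−0.32 and −0.64), and *Igf2bp1* lies below 0 in all 8 libraries.

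*Igf2bp1* (chr11:95957163-96005940, minus strand), an mRNA-binding protein and let-7 target, was below scr in every KD library of sets 2 and 3. The scr libraries held 24354 and 24925, the untreated library 23960 and the luciferase library 24369. SP held 19905 and 17965, or 81.7% and 72.1% of scr, the lowest values of their sets. The log2 fold change in SP was −0.38 (SE 0.10, interval −0.60 to −0.16), with a limma adjusted p of 1.00, and of 0.0536 with the block. It was called in SP by edgeR with the block (adjusted p 0.0345) and by DESeq2 without and with it (0.0183 and 0.000612). In 3p the values were 20899 and 20147, a log2 fold change of −0.26 (SE 0.10), with a limma adjusted p of 1.00, and of 0.256 with the block. SATS (23394 and 22591, −0.10, SE 0.10) and 5p (22838 and 21839, −0.14 as a description) were nearer to scr.

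Set 1 did not show the lower level of *Igf2bp1* in SP. Its scr library held 13802 and its SP libraries 13811, 16167 and 18185 (1a, 1b and 1c), all at or above scr. Over the 3 sets the log2 fold change was −0.18 (SE 0.25, interval −0.77 to 0.40), and −0.21 without SP 1c.

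*Igf2bp3*, a paralog with 1 let-7 match, differed from scr by at most 0.16 on the log2 scale in any KD library of sets 2 and 3. It held 1973 and 2197 in scr, and its log2 fold change was 0.11 in SP and in SATS and 0.07 in 3p (SE 0.13 each), with limma adjusted p of 1.00. With the set as a block the SE was 0.08, and SP, 3p and SATS were not called. All 8 KD libraries of these sets were above scr of their set. On the opposite strand, exons of *Malsu1* overlap 1529 of its 8159 exonic bases, and the methods state strand-aware counting for paired-end libraries only, so reads of the 2 genes may not be told apart everywhere.

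*Hmga2*, the chromatin protein with 4 let-7 matches, differed more between sets than between treatments. Values ranged over 990 to 1290.0 in set 2 (6 libraries) and over 599 to 867 in set 3 (6 libraries). In set 1, scr held 174 and SP 1a and 1b held 226 and 158, from 26 to 49 reads, while SP 1c held 781 from 97 reads. Its log2 fold change was −0.15 in SP, 0.06 in 3p and −0.15 in SATS (SE 0.40 each), with limma adjusted p of 1.00. With the set as a block the SE was 0.14, and SP, 3p and SATS were not called. In 5p *Hmga2* was above scr in set 2 (0.24) and below it in set 3 (−0.47).

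The fibroblast markers differed between the scr libraries of the sets in the same order as *Hmga2*. Their summed value was 6780 in scr of set 2, 1198 in scr of set 3 and 315 in scr of set 1, and among the SP libraries of set 1 it was highest in 1c. Of the 6 markers, 1 or 2 were at 0 in each library of set 1 and none in sets 2 and 3. Within set 2 the fibroblast sum was 10572 in SATS and 11337 in untreated cells, with *Hmga2* at 1121 and 1080, against 1091 in scr. Within set 3 the sum was highest in SATS (1601), with *Hmga2* at 655, against 827 in scr. The ectoderm marker sum was also lower in scr of set 1 (502) than in scr of sets 2 and 3 (3319 and 3229), and was 2263 in SP 1c. The pluripotency marker sum was higher in scr of set 1 (62211) than in scr of sets 2 and 3 (34426 and 32705), and was 32898 in SP 1c. The part of these markers in the level of *Hmga2* was not tested, and in bulk RNA fewer cells of a type and less RNA per cell cannot be told apart.

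**Figure D3:**
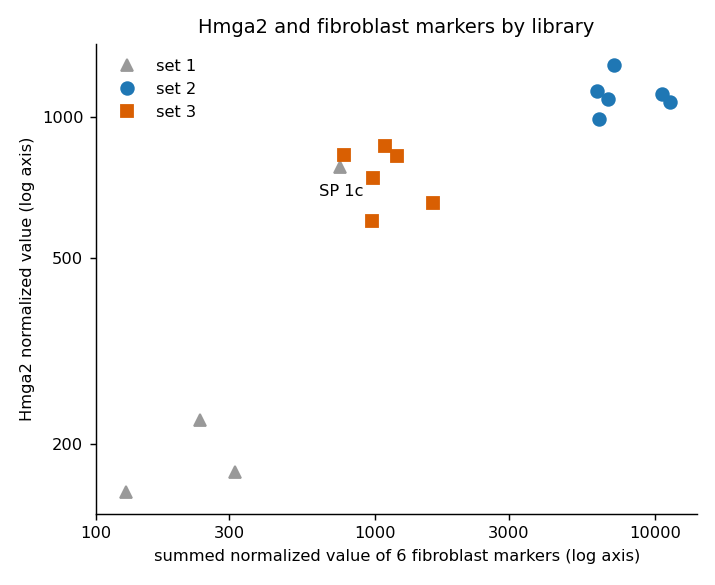
Normalized value of *Hmga2* against the summed value of 6 fibroblast markers in the 16 libraries, both on log axes, with 1 symbol per set. The libraries group by set, and SP 1c (781, marker sum 749) lies with set 3 and away from the other 3 libraries of set 1.

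*Mycn*, the transcription factor without a let-7 match in this window, held 3280 in scr of set 2 and 4628 in scr of set 3. SP held 3541 and 3780, 3p held 3502 and 3736, SATS held 3340.5 and 4647, and 5p held 3202 and 4367. In SP and 3p it was above scr in set 2 and below scr in set 3. The log2 fold change was −0.09 in SP, −0.11 in 3p and 0.02 in SATS (SE 0.23 each), with limma adjusted p of 1.00. With the set as a block the SE was 0.10, and SP, 3p and SATS were not called.

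Called at an adjusted p under 0.05, 0 of the 7 genes passed limma in SP, 3p or SATS, where 0.00606%, 0.00606% and 0% of all 16490 genes passed. At an unadjusted p under 0.05, 1 gene passed in each (*Igf2bp1* in SP and 3p, *Trim71* in SATS), as did 2.49%, 1.73% and 3.94% of all genes. Without the block edgeR called none either, and DESeq2 called *Igf2bp1* in SP alone (0.127% of all genes). With the set as a block limma called 0 of 7 in SP, 0 of 7 in 3p and 1 of 7 in SATS (*Trim71*), where 0.746%, 0.285% and 2.64% of all genes were called. By edgeR and DESeq2 with the block, 1 of 7 was called in SP (*Igf2bp1*, 0.813% and 1.32% of all genes) and 1 of 7 in SATS (*Trim71*, 3.34% and 5.15%). These comparisons share the scr libraries with 5p.

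In 5p, the contrast used for the choice, 0 of 7 passed limma without the block (0.0121% of all genes) and 2 of 7 with it, *Lin28a* and *Trim71* (2.37% of all genes). Nothing is read from this count. The median log2 difference of the 7 genes in 5p was −0.14, against 0.01 over all genes. It was 0.06 in SP, −0.02 in 3p and −0.10 in SATS, against 0.00 over all genes in each. Below 0 were 6 of 7 in 5p (*Lin28a*, chosen for its fall, included), 3 in SP, 5 in 3p and 4 in SATS. Nothing is read from these counts either.

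**Figure D4:**
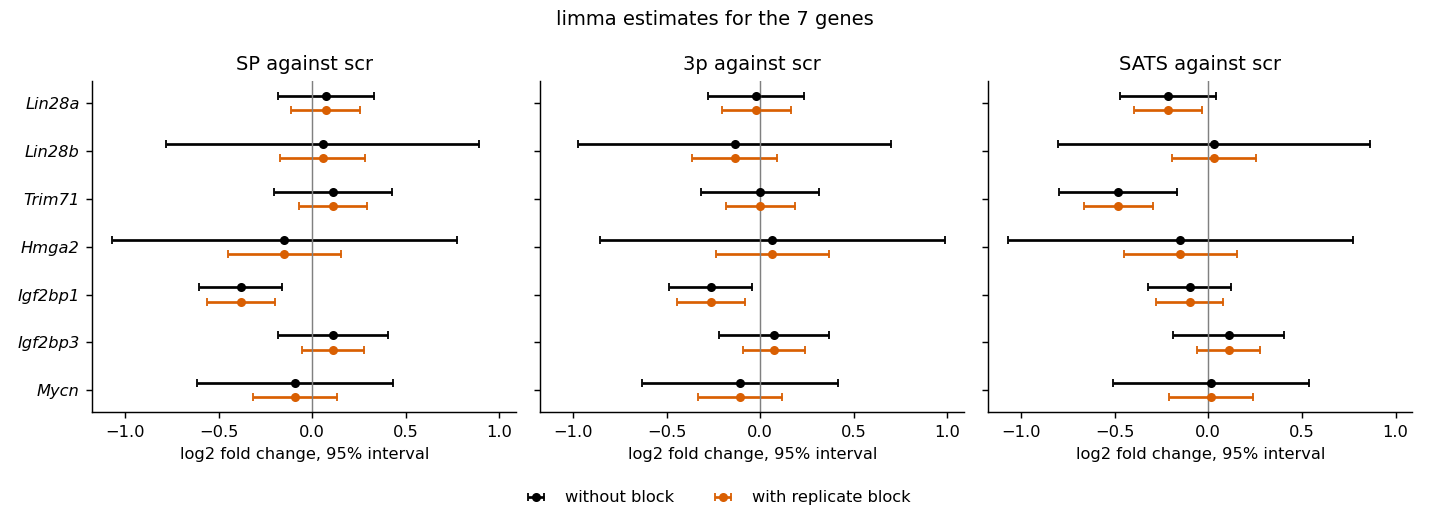
Log2 fold change of the 7 genes in SP, 3p and SATS against scr by limma, with 95% intervals, without (black) and with (orange) the replicate set as a block. The intervals of *Trim71* in SATS and *Igf2bp1* in SP and 3p lie below 0 in both fits before adjustment over all genes, and the block narrows those of *Lin28b*, *Hmga2* and *Mycn* most.

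When set 1 was added, its 3 SP libraries counting as 1 averaged sample, limma called 0 of the 7 genes in SP without and with the block, where 0% of 15970 genes were called in either fit. None of the 7 had an unadjusted p under 0.05 in these fits, and edgeR and DESeq2 called none. *Stag1* itself, at −2.15, was not called in these limma fits (adjusted p 0.225 without the block and 0.0534 with it). A count of 0 here thus does not show that a gene was unchanged. In set 1 *Lin28a* was above scr in all 3 SP libraries (6313, 7419 and 8150.0 against 5243). The log2 fold change over the 3 sets was 0.21 (SE 0.26, interval −0.41 to 0.83), and 0.18 without SP 1c. For *Hmga2* it was 0.28 (SE 0.70), and −0.05 without SP 1c.

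The controls other than scr give the size of differences without a *Stag1* siRNA. Over the 7 genes the log2 difference from scr of the same set was −0.12 to 0.17 in the untreated library and −0.12 to 0.01 in the luciferase library. The differences of *Lin28a* in 5p, *Trim71* in 5p and SATS, *Igf2bp1* in SP and 3p and *Hmga2* in SP lay below this range in both sets, and those of *Hmga2* in 5p lay above it in set 2 and below it in set 3.

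Further genes of the pathway were taken from 4 lists of protein-coding genes. The LIN28 cofactors comprise the uridylyltransferases *Zcchc11* and *Zcchc6*, the exonuclease *Dis3l2* and 4 RNA-binding or corepressor partners. None of these 7 genes was called in SP, 3p or SATS by limma, edgeR or DESeq2, without or with the block. By limma without it, 1, 0 and 0 had an unadjusted p under 0.05, as did 2.49%, 1.73% and 3.94% of all genes. Their median log2 fold change was 0.01, 0.04 and −0.04. *Msi1*, an RNA-binding protein that can bring LIN28A to its precursors, had the highest mean log2 difference over the 4 KDs (0.11) among genes whose mean value was 50 or more, as chosen in each list. In SP it was at 0.35 (SE 0.10, limma adjusted p 0.145, both with the block). *Trim28*, a corepressor, had the lowest mean (−0.17), and was at −0.20 in SATS (SE 0.09, limma adjusted p 0.254, both with the block).

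Of 17 genes of microRNA processing and Argonaute complexes, limma, edgeR and DESeq2 without the block called 0 in SP, 3p and SATS. By limma 3, 3 and 2 had an unadjusted p under 0.05, as did 2.49%, 1.73% and 3.94% of all genes. With the block limma called 1 in SP (0.746% of all genes) and 0 in 3p and SATS. With it edgeR called 1 in SP and *Ago1* in 3p (0.303% of all genes), and DESeq2 called 1 in SP, *Ago1* and *Tnrc6a* in 3p (0.867%) and *Ago2* in SATS (5.15%), genes named here after their values were seen. *Dicer1*, which cuts precursors to mature microRNAs, fell there from 3402 and 3532 in scr to 2578 and 2582 (log2 fold change −0.43, SE 0.08, limma adjusted p 0.0344 with the block). Without any 1 of the 4 libraries of both arms the log2 fold change was −0.45 to −0.40, and 1 library in an arm cannot decide the call. In set 1 *Dicer1* was higher in SP (3356, 3612 and 4003) than in scr (3154). In the other KDs *Dicer1* was at 0.06 (3p), −0.16 (SATS) and −0.04 (5p, as a description). The highest mean over the 4 KDs at a mean value of at least 50 was that of *Ago1*, an Argonaute protein (0.26). It was at 0.56 in 3p (SE 0.11, limma adjusted p 0.0512, both with the block), but at −0.33 in SATS, and at 0.40 in the luciferase library. The lowest mean was that of *Khsrp*, a let-7 processing factor (−0.18), which was at −0.34 in 3p (SE 0.09, limma adjusted p 0.163, both with the block).

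Among 27 other let-7 targets, 26 were tested. Without the block limma and edgeR called 0 in SP, 3p and SATS, and DESeq2 called 1, in SP (0.127% of all genes). By limma 1, 1 and 0 had an unadjusted p under 0.05, as did 2.49%, 1.73% and 3.94% of all genes. With the block limma called 1 in SP, 0 in 3p and 2 in SATS (0.746%, 0.285% and 2.64% of all genes), and so did edgeR. DESeq2 with the block called 1, 2 and 3 (1.32%, 0.867% and 5.15% of all genes). The list median was 0.00 in each KD by limma. *Nras*, a small GTPase with 1 let-7 match, fell in SP from 2649.9 and 2843 in scr to 1736 and 1812 (log2 fold change −0.63, SE 0.07, limma adjusted p 0.000890 with the block and 0.576 without). It was also below scr in all 3 SP libraries of set 1 (1669, 1897 and 1957 against 2424). With 1 library of either arm left out, its log2 fold change with the block was −0.65 to −0.61, and such fits cannot decide the call. In the other KDs *Nras* was at −0.33 (3p), −0.0004 (SATS) and 0.03 (5p, as a description).

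In SATS, *Ccnd1*, cyclin D1, fell from 3412 and 3015 in scr to 2790 and 2144 (−0.39, SE 0.09, limma adjusted p 0.0368 with the block). *E2f5*, a repressive cell cycle factor, rose from 305 and 380 to 397 and 575 (0.49, SE 0.11, limma adjusted p 0.0335 with the block). Without any 1 of the 4 libraries of both arms, the log2 fold change with the block was −0.55 to −0.24 for *Ccnd1* and 0.33 to 0.64 for *E2f5*. With 1 library in an arm, these fits cannot decide the calls. *Plag1* had the highest mean over the 4 KDs in this list (0.30), and was at 0.43 in 3p (SE 0.12, limma adjusted p 0.193, both with the block). *Ccnd1* had the lowest (−0.37), and neither *Plag1* nor *Ccnd1* holds a let-7 match in the searched 3′ UTR.

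The 5 mRNAs listed as repressed by TRIM71 are *Cdkn1a*, *Rbl1*, *Rbl2*, *Egr1* and *Mbnl1*. Limma, edgeR and DESeq2 without the block called 0 of them in SP, 3p and SATS, and 0 had an unadjusted p under 0.05. By limma 2.49%, 1.73% and 3.94% of all genes had one. In 3p, 1 was called by limma and edgeR once the set was a block (0.285% and 0.303% of all genes), and DESeq2 then called it in SP and 3p (1.32% and 0.867%). *Cdkn1a*, the cell cycle inhibitor p21, rose in 3p from 1316 and 718 in scr to 1692 and 1104 (0.49, SE 0.09, limma adjusted p 0.0378 with the block). With 1 library of either arm left out, its log2 fold change with the block was 0.38 to 0.60, and such fits cannot decide the call. In SATS, where *Trim71* was lowest, the log2 fold changes of the 5 mRNAs were 0.30 (*Rbl1*), 0.30 (*Mbnl1*), 0.09 (*Cdkn1a*), −0.04 (*Egr1*) and −0.06 (*Rbl2*). None of them was called there by limma, edgeR or DESeq2, with or without the block, while by limma with the block 2 of the 5, and 18.8% of all genes, were under 0.05 in unadjusted p. *Egr1* had the lowest mean over the 4 KDs in this list (−0.058), and was at −0.14 in SP (SE 0.10, limma adjusted p 0.644, both with the block).

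In 5p, as a description, the median log2 difference was −0.12 over the 26 other let-7 targets and 0.32 over the 5 TRIM71 targets, against 0.01 over all genes.

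**Figure D5:**
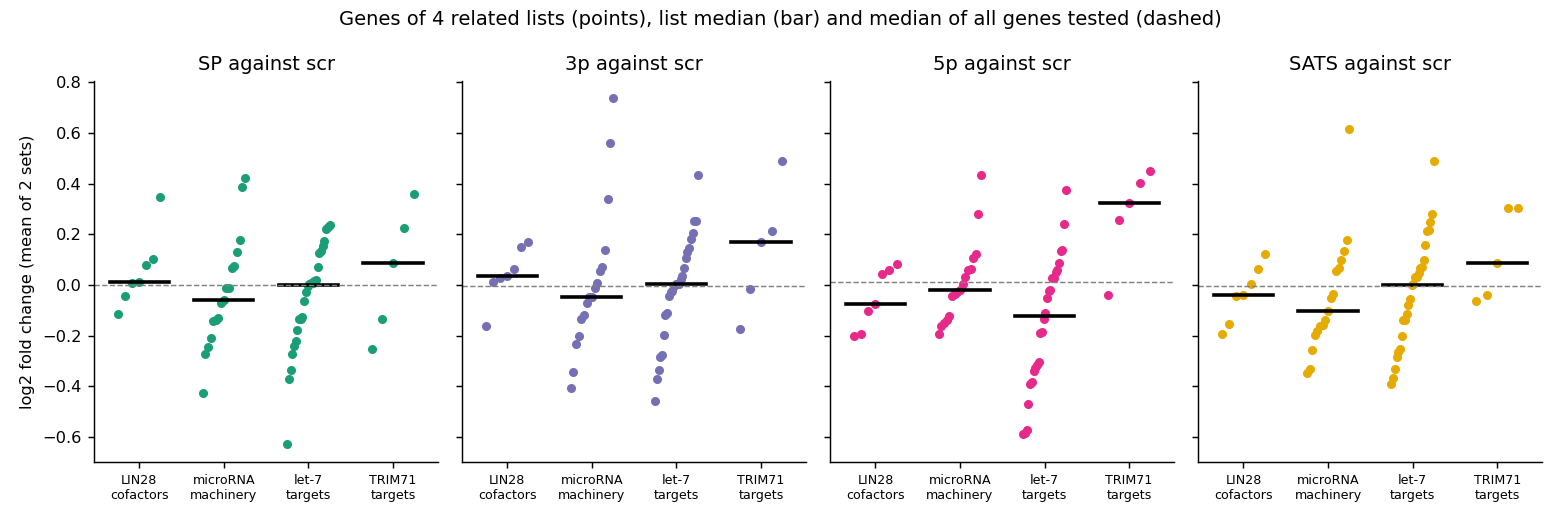
Log2 fold change against scr (mean over sets 2 and 3) of each gene of 4 lists, in 4 panels by KD, with a bar at the list median and a dashed line at the median of all genes tested. Medians lie between −0.12 and 0.17 except for the TRIM71 targets in 5p (0.32).

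Transcripts of let-7 precursors were at the limit of these libraries. The 7 rows *Mirlet7a-1*, *Mirlet7d*, *Mirlet7e*, *Mirlet7f-1*, *Mirlet7g*, *Mirlet7i* and *Mir98* held 0 to 36 reads per library, and their sum was 48 to 109 reads per library in sets 2 and 3 and 4 to 11 in set 1. In 5p the summed normalized value was 35.3 and 29.1, against 23.1 and 30.9 in scr. None was called in SP, 3p or SATS by limma, edgeR or DESeq2, without or with the block. By limma without the block 1 row had an unadjusted p under 0.05 in each, as did 2.49%, 1.73% and 3.94% of all genes. Reads on a precursor row are not mature let-7, which is too short for these libraries, so a change of the microRNA itself was not measured here.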

How the data were processed

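The deposited table was made by the authors with hisat2 (genome mm10, run through Nextflow) and featureCounts, and the gene counts were then divided by DESeq2 size factors (version 1.14.1 in the submitters' processing notes). The deposited values are thus a normalized signal, in which 1503 of 18659 genes had a summed value under 10. The annotation used for counting is not given in the sources used here. All values were whole multiples of the value of 1 read (100% within 0.01 of a whole number), so reads and depth could be recovered. Reads carry no molecular identifiers and may repeat a molecule, so depth speaks to counting error alone. A second deposited table, of set 1 alone, and libraries from 2i cultures were not used here.

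Log2(value + 1) entered linear models in limma 3.58.1 in R 4.3.3 (lmFit, eBayes with trend) over the 10 libraries of scr, SP, 3p, 5p and SATS in sets 2 and 3, and over 3 scr and 3 SP samples for SP in 3 sets, for genes whose values summed to 10 or more, with Benjamini-Hochberg adjustment over all genes. On this scale the change of a low gene comes out too small. Alternatives were edgeR 4.0.16 and DESeq2 1.42.0 on the recovered reads, the replicate set as a block, other pseudocounts and filters, further controls, and each library left out. The labels number the replicate sets. Deviations from the group means correlated, between samples of 1 set number, at 0.81 to 0.93 in the panel (20 pairs) and 0.77 to 0.82 over 3 sets, so that the numbers pair the samples. With 2 libraries per group in the panel, deviations in set 3 mirror those in set 2, so its 20 pairs are not independent. In simulated data for 3p against scr (16367 genes, 200 of them changed), limma recovered 85% of the changed genes without the block, with 0 false calls, and 100% with it, with 14 false calls beside the 200 true ones.

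The members and lists were chosen with earlier results of these data known. Genes named were the 7 members, *Stag1*, list genes called in SP, 3p or SATS by limma without or with the block, in each list the genes with the highest and lowest mean log2 difference over the 4 KDs at a mean value of at least 50, and the 5 genes most like *Lin28a*. Mature microRNAs are from RefSeq (GRCm38.p6), and 3′ UTRs from GENCODE M21.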

Additional observations from a re-analysis of the deposited data

How the results depend on the processing

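Calls of the 7 genes changed with the tool and with the block. In SP of sets 2 and 3, limma called 0 and *Igf2bp1* made 1 called by DESeq2 without the block, by DESeq2 with it and by edgeR with it. In SATS, *Trim71* made 1 with the replicate block by limma, edgeR and DESeq2, against 0 without it. A library left out of that limma fit leaves 1 in an arm, so those fits cannot decide the call. Pairing by set raised the genes called by limma from 1 to 123 in SP, from 1 to 47 in 3p and from 0 to 436 in SATS, of 16490. In 3p and in SP over 3 sets 0 of 7 were called under all alternatives run, the block included, and no pseudocount, filter or left-out library changed a count in the fits without the block.

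Of the log2 fold changes of single genes, 88 of 98 alternatives in SP, 82 of 98 in 3p, 88 of 98 in SATS and 110 of 119 in SP over 3 sets kept their direction and their side of the threshold. Past the threshold came 3 in SP and 3 in SATS, and 7, 16, 7 and 9 reversed, all of values not called. With a library left out, values ranged in 3p over −0.12 to 0.078 (*Lin28a*), −0.51 to 0.24 (*Lin28b*), −0.072 to 0.070 (*Trim71*), −0.13 to 0.26 (*Hmga2*), −0.050 to 0.20 (*Igf2bp3*) and −0.36 to 0.14 (*Mycn*). In SP they ranged over −0.028 to 0.17 (*Lin28a*), −0.35 to 0.46 (*Lin28b*), −0.36 to 0.060 (*Hmga2*), −0.020 to 0.24 (*Igf2bp3*) and −0.34 to 0.16 (*Mycn*). In SATS the ranges were −0.26 to 0.32 (*Lin28b*), −0.54 to 0.24 (*Hmga2*) and −0.23 to 0.26 (*Mycn*), and in SP over 3 sets −0.070 to 0.39 (*Lin28a*), −0.53 to 0.79 (*Hmga2*) and −0.073 to 0.25 (*Mycn*). *Trim71* in 3p, at 0 in the first decimals, was 0.0067 and 0.0021 by edgeR and 0.0072 and 0.0028 by DESeq2 (without and with the block). With untreated and luciferase as further controls, *Lin28a* in 3p was 0.016 and *Mycn* in SATS −0.0039. *Hmga2* in SP over 3 sets was −0.052 by DESeq2, −0.080 by edgeR and −0.026 by edgeR with the block, and −0.054 without and with the block when SP library 1c was left out, an alternative chosen after seeing the data, as were the block fits without 1 library. The cause was not tested in any of these cases. In 5p, as a description, *Lin28a* stayed between −0.78 and −0.58 with a library left out.

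With 2 libraries per group, differences of the size of the SE printed beside each value are not resolved, and for *Hmga2*, *Lin28b* and *Mycn* without the block the SE is 0.23 to 0.40 on the log2 scale. In set 1, 26 to 97 reads on *Hmga2* limit its value. Mature let-7 was not measured.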
